A study of Mus musculus with 6 samples.

Results

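The miRNAs described here are miR-126, miR-10a, miR-10b, miR-221, miR-222 and miR-139, a group best known from blood vessels. Every assay of a TaqMan OpenArray rodent panel whose name, without species prefix and arm mark, is one of these 6 names was taken, which gave 11 of the panel's 750 miRNA assays. The panel was run once per mouse on RNA from whole prefrontal cortex. The mice were male, untreated and 5 months old, 3 of them C57BL/6J (labelled wild type) and 3 BTBR T+ Itpr3tf/J, an inbred strain studied for autism-like traits. The labels give C57BL/6J as the strain background of both groups, and the strains were told apart by sample title and genotype. Each sample was 1 mouse, and the study compared miRNA levels between the strains. Levels were read as cycle thresholds, that is the PCR cycle at which the signal of an assay passes a set level. A later threshold stands for less RNA, and a value of 40 means that the assay was undetermined.

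A miRNA is cut from a hairpin RNA and pairs with messenger RNAs mainly through its seed, the bases near its 5′ end, which leads to their repression. miR-126 is the miRNA most specific to endothelial cells, the cells that line vessels, and it strengthens their response to vascular growth factor by repressing inhibitors of that signal. The miR-10 family lies in the Hox gene clusters and is made mostly in caudal tissues and in endothelium. miR-221 and miR-222 come from neighbouring hairpins on the X chromosome, repress the receptor gene Kit and the cell-cycle inhibitor gene Cdkn1b, and are made in vessels as well as in neurons. miR-139 is made from the phosphodiesterase gene Pde2a, which is strongly expressed in brain, so it is not a marker of vessels alone. In RNA from whole tissue, fewer cells of a type and less RNA per cell cannot be told apart.

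The mature sequences of the arms that the results turn on are shown because 2 seeds are shared between members. They are the mouse sequences of RefSeq (build GRCm38.p6), written 5′ to 3′ with the seed, bases 2 to 8, in capitals. RefSeq entries were found for all 6 hairpins, but none for the mature 5p arm of Mir126a. The sequence of that arm, to which hsa-miR-126# is tied, is therefore not shown. The probe sequences of the assays are not used here, so each assay is tied to an arm by its name.
mmu-miR-126a-3p: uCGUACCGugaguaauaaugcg
mmu-miR-10a-5p: uACCCUGUagauccgaauuugug
mmu-miR-10b-5p: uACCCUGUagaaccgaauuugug
mmu-miR-221-3p: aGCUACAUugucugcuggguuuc
mmu-miR-222-3p: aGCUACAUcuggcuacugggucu
mmu-miR-139-5p: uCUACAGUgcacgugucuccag
mmu-miR-139-3p: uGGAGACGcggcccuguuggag

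The 5p arms of miR-10a and miR-10b share a seed and 22 of 23 bases, with the single substitution U12A from miR-10a to miR-10b, counted from the 5′ end. miR-221-3p and miR-222-3p share the first 8 bases, seed included, and 11 of 23 bases in all, so the rest of the molecule sets them apart. In the RefSeq table, mmu-miR-1928 has this seed too, while no other mature mouse miRNA in it has the seed of miR-126a-3p, of the miR-10 5p arms or of either arm of miR-139. The hairpin Mir126a lies at chr2:26591357-26591429 on the plus strand, within the span of Egfl7, a gene of endothelial cells. Mir139 lies at chr7:101475376-101475443 on the plus strand, within the span of Pde2a. Mir10a, at chr11:96317165-96317274 on the plus strand, lies within the span of Hoxb3, and Mir10b, at chr2:74726070-74726137 on the plus strand, within the spans of Hoxd3 and Hoxd4. Mir221 (chrX:19146294-19146388) and Mir222 (chrX:19146893-19146971) lie on the minus strand with 504 bases between them and within no other annotated gene.

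Of the 11 assays, 5 were determined in all 6 mice, 3 in some and 3 in none. The 5 were hsa-miR-126, hsa-miR-221, hsa-miR-222, hsa-miR-139-5p and mmu-miR-139-3p, all of them in pool A (the letter that ends the assay's identifier). The 3 determined in some mice, hsa-miR-126#, hsa-miR-10a and hsa-miR-10b, were in pool A as well. The 3 in none, hsa-miR-10a#, mmu-miR-10b and mmu-miR-10b#, were the members in pool B. Here # marks the less abundant arm of a hairpin. So the endothelial marker miR-126 was read in every mouse, while the assays of the miR-10 family were undetermined in most mice.

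**Figure D1:**
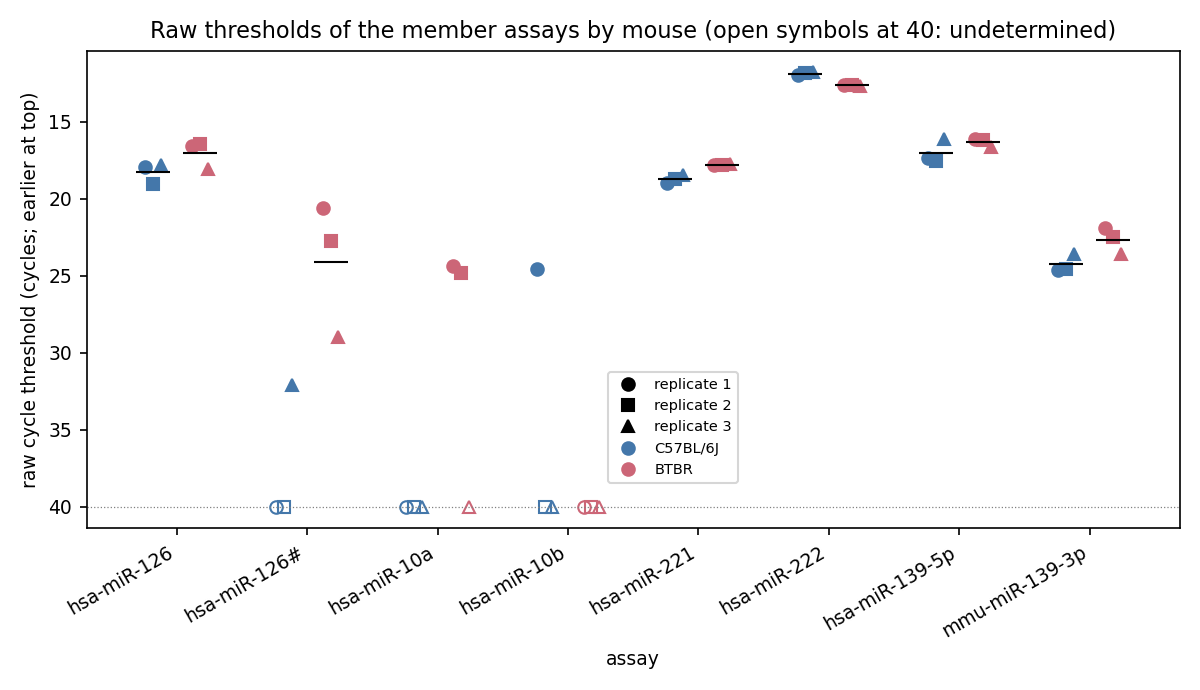
Raw cycle threshold (vertical axis, in cycles, earlier at the top) of the 8 member assays determined in at least 1 mouse, by strain (colour) and replicate (symbol); black lines are means of 3 determined values and open symbols at 40 are undetermined. The strains do not overlap for miR-221, which is earlier in BTBR, and for miR-222, which is later in BTBR.

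The libraries differed in ways that touch these assays. In the counts here a reading under 10 cycles, of which C57BL/6J mice had 1 to 7 and BTBR mice 2 to 5, is not counted as determined. BTBR mice had more assays determined (347 to 404) than C57BL/6J mice (289 to 305). The excess lay mostly in pool A, with 212 to 244 against 175 to 180. In pool B the counts were 114 to 161 and 114 to 129. The labels do not say how the mice were spread over arrays, so array and strain cannot be told apart if they were run separately. BTBR replicate 3 correlated more with the C57BL/6J mice over the 189 assays with 6 normalized values (Pearson r across assays 0.945 to 0.966) than with the other BTBR mice (0.938 and 0.918), and member values without it are given beside the results. Each endogenous control had 16 spots in a sample, of which 10 to 16 were determined. The determined spots had an SD of 1.56 to 8.33 cycles, and each miRNA assay was read on 1 spot only. Every endogenous control had fewer determined spots in each C57BL/6J mouse than in any BTBR mouse. For U6 rRNA the counts were 11 to 13 in C57BL/6J and 16 in BTBR, and for U87 10 to 11 and 15 to 16. Y1 had 12 and 15 to 16, snoRNA135 12 to 13 and 16, and snoRNA202 13 to 15 and 16.

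**Figure D2:**
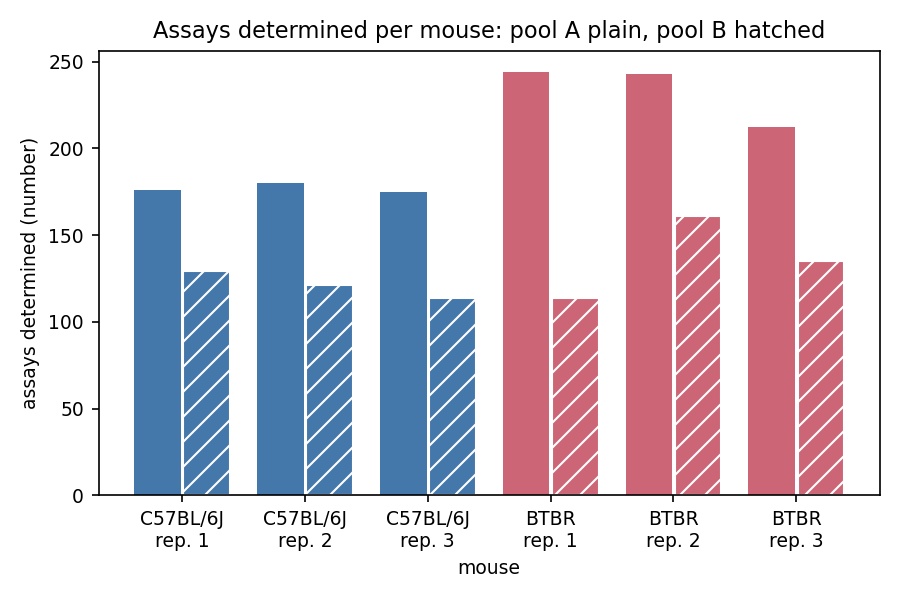
Number of miRNA assays determined (vertical axis) in each mouse, for pool A (plain bars) and pool B (hatched bars). All 3 BTBR mice stand above all C57BL/6J mice in pool A, at 212 to 244 against 175 to 180, and the pool B counts overlap.

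For the strain comparison 2 scales were used. The first is the authors' normalized thresholds, in which samples were given common quantiles and 306 assays were kept, 6 of them members. The second, called the global mean scale, takes each raw threshold below the sample's mean over the 237 assays determined in all 6 mice, so that a higher value is more miRNA. The sample means lay between 21.46 and 22.62 cycles. On both, 1 cycle counts as 1 log2 unit and differences are BTBR minus C57BL/6J. The median difference over all tested assays was -1.13 on the authors' scale (231 assays) and -0.40 on the global mean scale (270 assays). Member differences are set beside these medians, but assays of different levels were not shifted alike. On the authors' scale the early assays hsa-miR-30c, hsa-miR-26a, hsa-miR-132 and hsa-miR-125b stood at -0.46, -0.32, 0.29 and -0.61. Slightly later assays were more mixed, with -0.72 for hsa-miR-150, -2.47 for hsa-miR-145 (2 BTBR values), -1.05 for mmu-miR-434-3p and -0.09 for hsa-miR-9#. Late assays went both ways, as in hsa-miR-199a-3p (-2.92), mmu-miR-669a (-3.135) and mmu-miR-140 (2.71).

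Of the 5 testable members, 0 passed an adjusted p of 0.05 in limma on either scale, and the number with an unadjusted p under 0.05 was 0 on the authors' scale and 1, miR-222, on the global mean scale. Over all tested assays, 36.8% passed on the authors' scale (85 of 231): 35.5% were lower in BTBR and 1.3% higher. An unadjusted p under 0.05 was found for 48.9%. On the global mean scale 0% passed (0 of 270), and 26.3% had an unadjusted p under 0.05 in limma. The members' median difference was 0.11 on the authors' scale and 0.56 on the global mean scale. Each of the 5 lay above the panel's median difference on the authors' scale, and 4 of the 5, all but miR-222, lay above it on the global mean scale. When the authors' values were centred on sample medians, which moved the panel's median difference to 0.05, 4 of the 5 had an unadjusted p under 0.05 in limma (70 of 231 over the panel) and 0 passed. The 5 differences were then 1.75 for miR-126, 1.28 for miR-221, 0.82 for miR-222, 1.76 for miR-139-5p and 1.00 for miR-139-3p. This centring moves early and late assays of a sample by the same amount, so it takes no account of an assay's level. The direction of 2 members depended on the scale: mmu-miR-139-3p had opposite signs on them, and hsa-miR-222 turned positive when the authors' values were centred on sample medians.

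**Figure D3:**
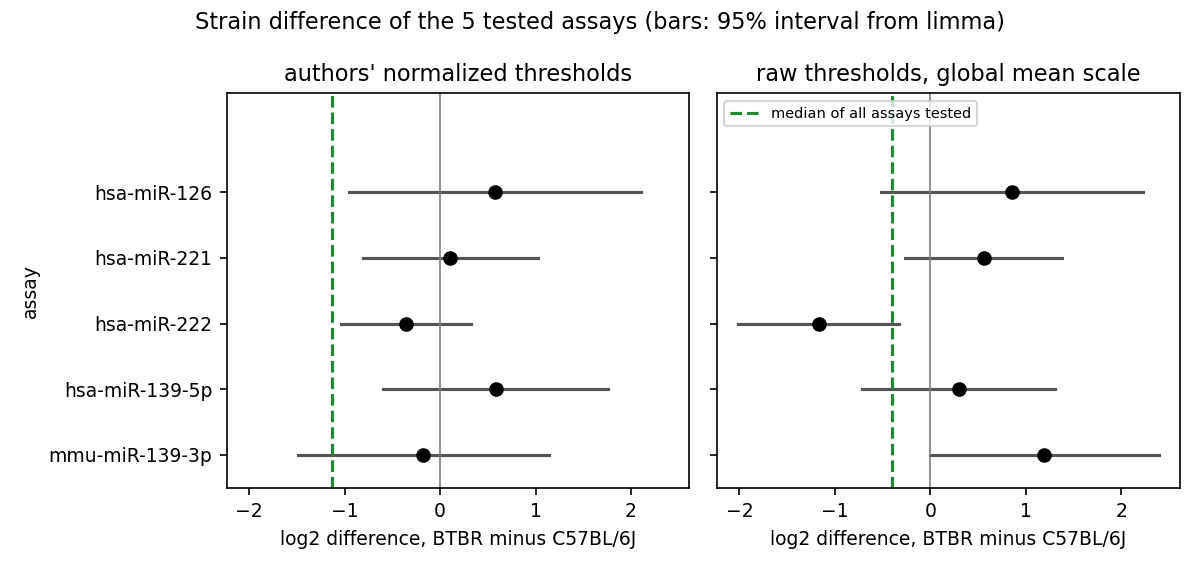
Difference in log2 level between BTBR and C57BL/6J (horizontal axis) of the 5 tested assays, with 95% intervals from limma, on the authors' normalized thresholds and on the global mean scale; the dashed line is the median of all assays tested, -1.13 and -0.40. Only the interval of miR-222 on the global mean scale leaves out 0, and that assay's adjusted p was 0.135.

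The assay hsa-miR-126 (002228), which reads the endothelial guide arm, gave raw thresholds of 17.94, 19.07 and 17.82 cycles in C57BL/6J and 16.56, 16.47 and 18.06 in BTBR. BTBR replicates 1 and 2 were earlier than every C57BL/6J mouse, BTBR replicate 3 was not, and the strains overlapped. The raw mean was 18.28 ± 0.69 cycles for the 3 C57BL/6J mice and 17.03 ± 0.891 for the 3 BTBR mice (SD). On the authors' scale the difference was 0.58 (standard error 0.62, 95% interval -0.95 to 2.10, limma adjusted p = 0.474), with normalized thresholds of 17.88 ± 0.578 and 17.30 ± 1.05 cycles (SD, n = 3 each). On the global mean scale it was 0.86, or 1.81-fold more in BTBR (standard error 0.56, 95% interval -0.52 to 2.23, limma adjusted p = 0.349). Of the 270 assays tested there, 215 had a lower difference. The size depended on single mice. On the authors' scale it was 1.18 without BTBR replicate 3 (limma adjusted p = 0.073), but 0.23 without BTBR replicate 1, 0.29 without C57BL/6J replicate 2 and 0.32 without BTBR replicate 2. On the global mean scale it was 1.23 without BTBR replicate 3 (limma adjusted p = 0.152) and 0.46 without C57BL/6J replicate 2.

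The other arm of the same hairpin, hsa-miR-126# (000451), was undetermined in C57BL/6J replicates 1 and 2 and read at 32.10 cycles in C57BL/6J replicate 3. In BTBR it was determined in all 3 mice, at 20.59, 22.78 and 28.96 cycles. Every BTBR reading was earlier than the single C57BL/6J reading, but the BTBR readings themselves differed widely (SD 4.34 cycles, n = 3). The normalized table keeps 28.35 for C57BL/6J replicate 3 and 20.84 and 24.22 for BTBR replicates 1 and 2, and it has BTBR replicate 3 at 40. With 1 value in C57BL/6J the assay was left out of the test. With 40 kept as a number the difference was 7.76 (limma adjusted p = 0.384). The authors' deposited table gives a 217-fold higher level in BTBR with a p-value of 0.343, from means of 36.12 and 28.35 cycles in which 40 enters as a number although it is no measured level. Within a mouse, miR-126# came 4.03, 6.31 and 10.91 cycles after miR-126 in BTBR and 14.28 cycles after it in C57BL/6J replicate 3. The gap between the arms thus varied by more cycles among the 3 BTBR mice than miR-126 itself, whose BTBR readings spanned 16.47 to 18.06 cycles.

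The miR-10 family gave few readings. The assay hsa-miR-10a (000387) was undetermined in all C57BL/6J mice and in BTBR replicate 3, and was read at 24.37 and 24.80 cycles in BTBR replicates 1 and 2. Its less abundant arm, hsa-miR-10a# (002288), was undetermined in all 6 mice. The assay hsa-miR-10b (002218) had 1 reading, at 24.59 cycles in C57BL/6J replicate 1, while mmu-miR-10b (001181) and mmu-miR-10b# (002572) were undetermined throughout. The reading of hsa-miR-10b was thus not repeated by mmu-miR-10b, which was undetermined in the same mouse, and no strain difference can be drawn from either family member. An undetermined assay does not give the level of the miRNA.

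The readings of hsa-miR-10a, in BTBR only, and of hsa-miR-126#, in more BTBR than C57BL/6J mice, have a counterpart in the panel. Among assays determined in some but not all mice, 69.3% (156 of 225) were determined more often in BTBR, and in pool A, where hsa-miR-10a and hsa-miR-126# lie, 81.2% (95 of 117), against 56.5% (61 of 108) in pool B. The pattern of hsa-miR-10a, at least 2 BTBR values and no C57BL/6J value, was shared by 57 of the 377 pool A assays (15.1%), whereas the reverse pattern was found for 3 (0.796%). A single reading in 6 mice, as for hsa-miR-10b, was found for 19 pool A assays (5.04%). An example chosen after its values were seen is miR-143 of mural cells, which has an assay in each pool: the pool A assay (002249) was undetermined in all C57BL/6J mice and read at 21.68, 20.83 and 23.72 cycles in BTBR, while the pool B assay (000466) was read at 25.81, 25.33 and 24.87 cycles in C57BL/6J and 25.78, 25.83 and 27.35 in BTBR. BTBR mice had more determined pool A assays and more determined control spots. The part of either in the readings of miR-10a and miR-126# was not tested.

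The pair miR-221 and miR-222, which share a seed and a locus, had strain differences of opposite sign on the raw thresholds. The assay hsa-miR-221 (000524) gave raw thresholds of 19.01, 18.76 and 18.48 cycles in C57BL/6J and 17.83, 17.82 and 17.74 in BTBR. All BTBR mice were earlier, and the strains did not overlap. The assay hsa-miR-222 (002276) was read at 11.95, 11.88 and 11.81 cycles in C57BL/6J and at 12.63, 12.62 and 12.71 in BTBR. Here all BTBR mice were later, again with no overlap. The SD over 3 mice was 0.0716 and 0.0501 cycles for miR-222 in C57BL/6J and BTBR, and 0.266 and 0.0498 for miR-221. Strains that do not overlap on raw thresholds were found for 32.5% of the 237 assays with 6 values, 14.3% higher and 18.1% lower in BTBR, so such a pattern was common on this panel.

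On the global mean scale miR-222 stood at 10.66, 10.35 and 10.08 in C57BL/6J and 9.35, 8.83 and 9.41 in BTBR, and the strains did not overlap. The difference was -1.17, or 2.25-fold less in BTBR (standard error 0.34, 95% interval -2.01 to -0.33, unadjusted p = 0.0147, limma adjusted p = 0.135). Other early assays had negative differences too: -1.32 for hsa-miR-30c, -1.06 for hsa-miR-138 (2 C57BL/6J values) and -1.05 for hsa-miR-26a. For hsa-miR-125b and hsa-miR-132 the differences were -1.275 and -0.45. The part of a shift shared by early assays in the value of miR-222 was not tested. For miR-221 the levels were 3.60, 3.47 and 3.41 in C57BL/6J and 4.15, 3.63 and 4.38 in BTBR, also without overlap. Its difference was 0.56 (standard error 0.34, 95% interval -0.26 to 1.38, limma adjusted p = 0.307). Strains that did not overlap were 35% of the assays with 6 values on this scale. So neither member of the pair passed the test. Without BTBR replicate 3 the difference was -1.28 for miR-222 (limma adjusted p = 0.0603) and 0.39 for miR-221 (0.38). Each kept its direction under the other scalings of the raw thresholds, but with quantiles of the detected values the difference of miR-222 was only -0.18 (limma adjusted p = 0.752), while that of miR-221 was 0.67.

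On the authors' scale the differences were smaller. miR-221 had normalized thresholds of 18.35 ± 0.407 cycles (C57BL/6J, SD, n = 3) against 18.24 ± 0.427 (BTBR, SD, n = 3), a difference of 0.11 (standard error 0.37, 95% interval -0.81 to 1.02, limma adjusted p = 0.809). miR-222 had 12.14 ± 0.254 and 12.50 ± 0.0924 cycles (SD, n = 3 each), a difference of -0.36 (standard error 0.28, 95% interval -1.04 to 0.32, limma adjusted p = 0.332). With readings under 10 cycles left out, the raw reading of miR-222 held place 2 to 5 from the earliest in a C57BL/6J mouse and place 5 or 6 in BTBR. The readings left out, all earlier than miR-222, were 1, 1 and 7 in C57BL/6J replicates 1, 2 and 3. In BTBR replicates 1, 2 and 3 they were 2, 5 and 5, so these places are not places among all readings. C57BL/6J replicate 1 and BTBR replicate 1 have the same normalized value of miR-222, 12.39 cycles, where the raw values were 11.95 and 12.63. The strains overlapped on this scale for both assays, as for the other 3 tested members, whereas 59.3% of the 189 assays with 6 normalized values did not overlap, 1.59% higher and 57.7% lower in BTBR.

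A gap between 2 assays of the same pool in the same mouse does not change when all thresholds of a sample are shifted by the same amount. miR-221 came 7.06, 6.88 and 6.67 cycles after miR-222 in C57BL/6J and 5.20, 5.20 and 5.03 cycles after it in BTBR. The 3 C57BL/6J mice had a mean gap of 6.87 ± 0.195 cycles, and the 3 BTBR mice one of 5.14 ± 0.0996 (SD). The ratio of miR-221 to miR-222 was thus 3.31-fold higher in BTBR, with a gap difference of -1.73 cycles (exact permutation test, two-sided, p = 0.1, the smallest p that 3 mice against 3 allow, and 0.1 after Benjamini-Hochberg adjustment over 2 pairs). With 1 mouse left out at a time the difference ran from -1.83 to -1.63 cycles. Among all 11476 pairs of pool A assays with 6 values, the gaps of the strains did not overlap in 37%. miR-221 and miR-222 sit at different levels, and the part of a level-dependent shift in their gap was not tested. On the authors' normalized thresholds the gap difference was -0.46 cycles and the strains overlapped (exact permutation p = 0.3).

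miR-139 was read from both arms, and the arms differed in how they depended on the scale. The assay hsa-miR-139-5p (002289), of the more abundant arm, gave raw thresholds of 17.34, 17.59 and 16.12 cycles in C57BL/6J and 16.12, 16.19 and 16.66 in BTBR. The strains overlapped because C57BL/6J replicate 3 was as early as the earliest BTBR mouse. The difference was 0.58 on the authors' scale (standard error 0.48, 95% interval -0.59 to 1.76, limma adjusted p = 0.36) and 0.29 on the global mean scale (standard error 0.41, 95% interval -0.72 to 1.31, limma adjusted p = 0.64). Without C57BL/6J replicate 2 the value on the global mean scale was 0.0042 (limma adjusted p = 0.993), and without BTBR replicate 3 the values on the authors' and the global mean scale were 0.81 and 0.32. The assay mmu-miR-139-3p (002546) gave raw thresholds of 24.64, 24.56 and 23.57 cycles in C57BL/6J and 21.92, 22.50 and 23.58 in BTBR. The raw values overlapped only through C57BL/6J replicate 3 and BTBR replicate 3. On the global mean scale its levels of -2.02, -2.33 and -1.68 in C57BL/6J lay below all BTBR levels, 0.06, -1.04 and -1.46. The difference there was 1.19, or 2.29-fold more in BTBR (standard error 0.49, 95% interval -0.0045 to 2.39, limma adjusted p = 0.186). On the authors' scale it was -0.18 (standard error 0.53, 95% interval -1.49 to 1.14, limma adjusted p = 0.788), so the sign turned. Without BTBR replicate 3 the values were 1.51 on the global mean scale (limma adjusted p = 0.0717) and 0.10 on the authors' scale, where the sign turned as well. Without BTBR replicate 1 they were 0.77 and -0.62.

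Within a mouse, miR-139-3p came 7.30, 6.98 and 7.46 cycles after miR-139-5p in C57BL/6J and 5.80, 6.31 and 6.93 cycles after it in BTBR, so the strains did not overlap. The mean raw gap was 7.24 ± 0.244 cycles (SD over the 3 C57BL/6J mice) against 6.35 ± 0.563 (SD over the 3 BTBR mice), a difference of -0.90 cycles, or a 1.86-fold higher ratio of the 3p to the 5p arm in BTBR (exact permutation test, two-sided, p = 0.1, adjusted p = 0.1 over 2 pairs). With 1 mouse left out at a time it ran from -1.19 to -0.63 cycles. On the authors' normalized thresholds the same gap was 6.39 ± 0.177 cycles for C57BL/6J against 7.15 ± 0.309 for BTBR (SD over 3 mice), again without overlap but in the opposite direction, by 0.76 cycles (exact permutation p = 0.1, adjusted p = 0.2 over 2 pairs). The change of the arm ratio therefore has no settled direction: it depends on whether the raw or the quantile-normalized thresholds are read. Of the 8 pairs of assays for both arms of a hairpin in 1 pool with 6 values, 4 (50%) had raw gaps that did not overlap between strains.

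**Figure D4:**
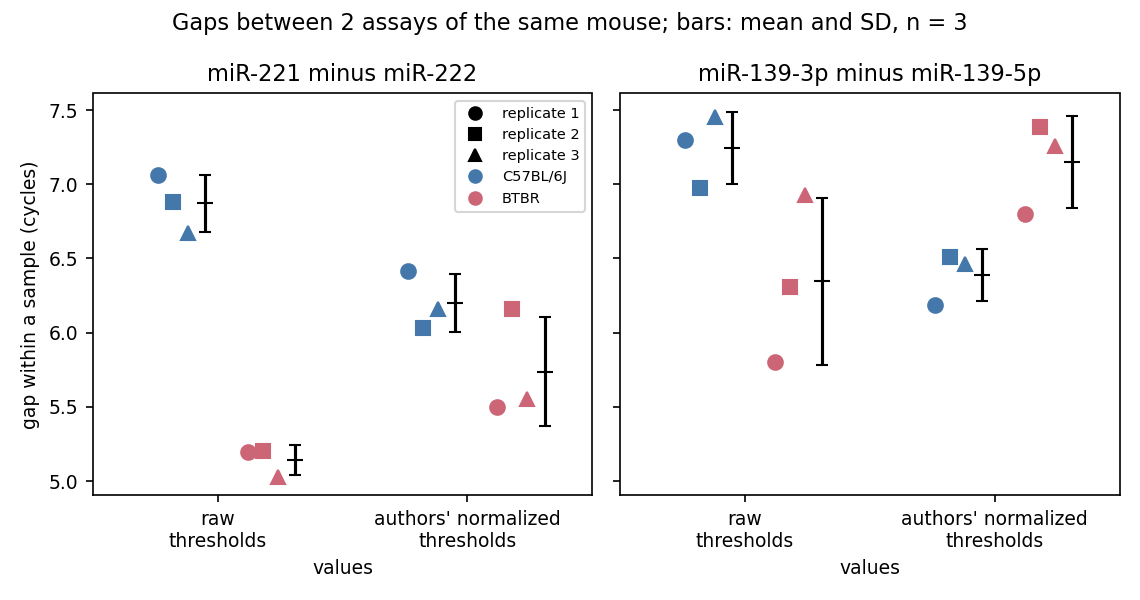
Gap in cycles (vertical axis) between miR-221 and miR-222 (left) and between miR-139-3p and miR-139-5p (right) in each mouse, on raw and on the authors' normalized thresholds, with mean and SD of 3 mice. The raw gaps of BTBR lie below those of C57BL/6J in both pairs, while for miR-139 the normalized gaps of BTBR lie above.

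The assays whose profiles over the 6 mice lay closest to those of the members were found on the global mean scale, as the smallest root mean square difference of the profiles after each was centred on its own mean, among 236 other assays with 6 values. For miR-126 they were mmu-miR-301b (0.27), mmu-miR-543 (0.36) and mmu-miR-139-3p (0.45), so another member was among the 3 closest. For miR-221 they were mmu-miR-324-3p (0.15), hsa-miR-191 (0.18) and mmu-miR-24-2# (0.18), and for miR-222 hsa-miR-128a (0.16), hsa-miR-99b (0.18) and mmu-miR-669a (0.18). RNO-MIR-551B (0.21), mmu-miR-495 (0.29) and mmu-miR-503# (0.34) were closest to miR-139-5p. The closest to miR-139-3p were hsa-miR-133a (0.36), mmu-miR-467# (0.37) and mmu-miR-93 (0.39). These distances are descriptions over 6 mice, and all profiles share the same samples and scaling. The closest profiles of miR-221 and miR-222 were not each other's.

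Other miRNAs with known roles in vessels were taken from a list of 20 names, such as miR-132, miR-210 and the miR-23, miR-27 and miR-24 clusters, and all 20 were on the panel, in 35 assays. On the authors' scale 13 were tested, 0 were higher and 4 lower in BTBR, against 82 lower of 231 (35.5%) over the panel, with a median difference of -0.79 against -1.13. The 4 were hsa-miR-15a (-2.13, standard error 0.47), hsa-miR-27a (-2.03, 0.53), mmu-miR-322 (-2.25, 0.60, 2 BTBR values) and mmu-miR-503# (-1.73, 0.47), with limma adjusted p of 0.0301, 0.0339, 0.0423 and 0.0366. miR-322 and miR-503 come from 1 cluster and slow endothelial growth. The largest differences in size, hsa-miR-24 at 6.09 (standard error 3.88) and hsa-miR-145 of mural cells at -2.47 (0.77, 2 BTBR values), did not pass. The value of miR-24 came from BTBR replicates 1 and 2, at raw thresholds of 17.20 and 16.06 cycles, while BTBR replicate 3 read 26.68, near the C57BL/6J readings of 28.08 and 27.15. On the global mean scale 15 were tested and 0 passed, with a median of -0.45 against -0.40.

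Markers of other cell types were read beside the members. The neuron list, read from assays of miR-124, miR-128, miR-129 and miR-138, did not take in miR-9. It had 5 to 7 of its 7 assays determined in C57BL/6J mice and 6 in each BTBR mouse, so markers of the labelled tissue were present. The mural list had 2 of 4 assays determined in C57BL/6J mice and 2 to 3 in BTBR, and the immune list 2 to 5 and 4 to 6 of 7. The erythroid list had 1 of 3 determined in each C57BL/6J mouse and 2 in each BTBR mouse, and the choroid plexus and ependyma list 3 to 5 and 6 to 9 of 12. The oligodendrocyte list had 4 to 5 and 5 to 6 of 6. Over the panel, 69.3% of the assays determined in some but not all mice were determined more often in BTBR (81.2% in pool A). Among assays with 6 values, median levels on the global mean scale were lower in every BTBR mouse for 2 lists. These were the oligodendrocyte list (-5.32 to -3.80 against -3.29 to -3.04, 4 assays) and the 1 mural assay, miR-143 of pool B (-5.23 to -3.81 against -3.20 to -2.97). Over the panel, 35% of assays did not overlap between strains on this scale, 23.2% being lower in BTBR. The strains overlapped for the neuron list (2.85 to 2.90 in BTBR, 1.70 to 3.53 in C57BL/6J) and the immune list (6.60 to 7.96, 7.94 to 8.91). The neuron median covers 4 assays that went different ways. Their differences were 5.21 for mmu-miR-124a, -1.18 for hsa-miR-128a, -0.55 for hsa-miR-129 and -0.25 for mmu-miR-129-3p. Outside the list, hsa-miR-9# stood at -0.62. The strains also overlapped for the erythroid (1.26 to 2.38, 0.47 to 1.52) and choroid plexus lists (-1.09 to 2.08, 0.06 to 1.79), and for miR-126 (4.07 to 5.42, 3.16 to 4.67). The pool A assay of miR-143 went the other way, being determined in BTBR mice only, as given above. The part of cell makeup, blood left in the tissue or dissection in the member values was not tested.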

How the data were processed

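RNA (100 ng per sample, RNA integrity number 9) was reverse transcribed, pre-amplified and run on the panel, per the labels' protocols; columns of the kind used recover short RNA unevenly. No label names the instrument software or threshold. The authors' normalized table is quantile-normalized, per the file headers. Setting raw values under 10 to 40, ranking the 340 assays with at least 3 values, 40 included, and setting values above 29.19 to 40 gave the deposited values to within 3.33e-09 cycles. The authors' deposited table gives a fold (ratio), a log2 difference with the sign turned, a test statistic (a score) and p-values.

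Raw values of 40 or under 10 were treated as missing. Assays with at least 2 values per strain were fitted with lmFit and eBayes of limma 3.58.1 (R 4.3.3), with Benjamini-Hochberg adjustment over all assays tested, a threshold of 0.05 and strain as the only term, and checked on simulated data. Gaps were compared with exact permutation tests (SciPy 1.17.1). Every member assay is named; of the other vascular list, those past the threshold and the 4 largest; and the 3 closest profiles per member. The members and lists were chosen with earlier results of these data known. With 1 PCR per assay and 3 mice per strain, precision is low.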

Additional observations from a re-analysis of the deposited data

How the results depend on the processing

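No member assay passed the limma threshold under any alternative run: 55 member values on the authors' scale had adjusted p from 0.073 to 0.995 and 75 on the global mean scale from 0.0603 to 0.993, and the direction held for 49 of the 55 and for 75 of the 75. These leave out hsa-miR-126#, tested only with 40 kept as a value. On the authors' scale hsa-miR-222 became 0.82 and mmu-miR-139-3p 1.00 when centred on sample medians, and 4 of 5 members had an unadjusted p under 0.05 there, against 0 of 5. With quantiles of detected raw values, miR-222 went from -1.17 to -0.18. With 1 mouse left out, hsa-miR-221 ran from -0.12 to 0.35 and mmu-miR-139-3p from -0.62 to 0.18, against 0.11 and -0.18 with all 6. The gap between the miR-139 arms changed sign on the authors' normalized thresholds (0.76 cycles), an alternative chosen after seeing the data. Over the whole panel, the 85 assays past the threshold on the authors' scale became 0 with BTBR replicate 1 or C57BL/6J replicate 3 left out, 3 with C57BL/6J replicate 2, 8 with BTBR replicate 2 and 101 with BTBR replicate 3 left out, and 2 when centred on sample medians; on the global mean scale 0 became 55 without BTBR replicate 3, with 0 members among them. The replicate block gave 49 and 0 such assays and 0 of 5 members on either scale; same-numbered mice did not deviate together (Pearson r 0.08, 0.42 and -0.0013 on the authors' scale), so the numbers were not taken as pairs. Member readings summed over mice were 17 in C57BL/6J and 20 in BTBR, and 16 and 20 with readings above 30 cycles left out. The causes were not tested.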
